A study of Mus musculus with 10 samples.

Results

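The endothelial and vascular genes described here are 40 genes that mark or act in the lining of blood and lymph vessels, taken by gene symbol from a table of 15472 genes measured by RNA-seq in inner ears of E16.5 mouse embryos. All 40 were in the table, and 32 were classed as pan-endothelial, 4 as tip and sprouting, 2 as arterial and 2 as lymphatic. The classes are approximate. The pan-endothelial one holds Slco1c1, a transporter gene of brain capillaries and choroid plexus, and the tip class Aplnr, also a receptor of veins and mesoderm. The ears came from 5 samples homozygous for the nmf219 allele of Tbx1 (nmf219/nmf219) and from 5 WT samples, all labelled C57BL/6. Tbx1 encodes a T-box transcription factor that the developing otic vesicle and nearby mesenchyme need. Whether each sample is a separate animal is not stated in the labels, and a p-value here weighs a difference against the scatter among samples, which may in part be technical.

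Endothelial cells form vessels by sprouting under vascular endothelial growth factor (VEGF), which acts on the receptors Kdr and Flt1, and they mature under angiopoietins, which act on the receptor Tek. Tip cells lead a sprout and signal through Dll4 to the stalk cells behind them, while arterial and lymphatic vessels turn on transcription factors and receptors of their own. In the inner ear, vessels of the stria vascularis and of the surrounding mesenchyme supply the cochlear duct and form a barrier against the blood. In other mouse tissues Tbx1 is known to act in endothelium itself, in lymphatic and brain vessels, where Flt4 and Dll4 have been described as its targets.

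None of the 40 genes differed between the genotypes past the test. Of them, 39 had a higher mean in nmf219 than in WT ears and 1, the transporter gene Slco1c1, a lower one. Most differences were small, with a median log2 fold change of 0.13. The ratio of a nmf219 mean to a WT mean ran from 0.717 (Slco1c1) to 1.22 (Bmx, an arterial kinase gene). The most abundant per length was Cdh5, the adhesion protein of endothelial junctions, at 32.2 per kb in nmf219 and 29.1 per kb in WT. The highest fold change was that of Vwf, the clotting factor stored in endothelial cells (log2 fold change 0.30), and the lowest that of Slco1c1 (-0.31).

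Values are the deposited reads per gene after the authors' scaling for depth, and log2 fold changes are nmf219 minus WT on log2(value + 1), tested with limma over all 15472 genes with Benjamini-Hochberg adjustment. At an adjusted p under 0.05 the test called 13 genes of the table (0.084%), 0 of the 40 among them, with adjusted p between 0.680 and 0.904 for the members. At an unadjusted p under 0.05 there were 14 members, all higher in nmf219, beside 601 genes that were higher at that p in the table (3.88%). The number of members at that p, in either direction, depended on the libraries and on the fit. Over all genes the share at that p, in either direction, was 7.11% in the main fit. The number of members was 4 without nmf219 replicate 1 (4.32% of all genes), 5 without WT replicate 4 (4.81%) and 19 without WT replicate 1 (8.13%). With Xist as a covariate it was 1 (4.17% of all genes), with Hbb-y 1 (5.17%) and with the skeletal muscle list 0 (2.71%). A log2 fold change above 0 occurred in 39 of 40 members and in 46.9% of all genes, whose median was -0.0055, and 11.5% of all genes lay above the median of the members. The genotypes' ranges overlapped in every member, while they were separate for 1.17% of all genes. The authors' deposited table gives an FDR under 0.05 to 3.26% of genes and to 1 member, Slco1c1. The 95% interval of the fold change included 0 in 26 members, and its highest upper bound over the 40 was 0.57. Whole ears were sequenced, so a difference in the number of endothelial cells and a difference in RNA per endothelial cell cannot be told apart.

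**Figure D1:**
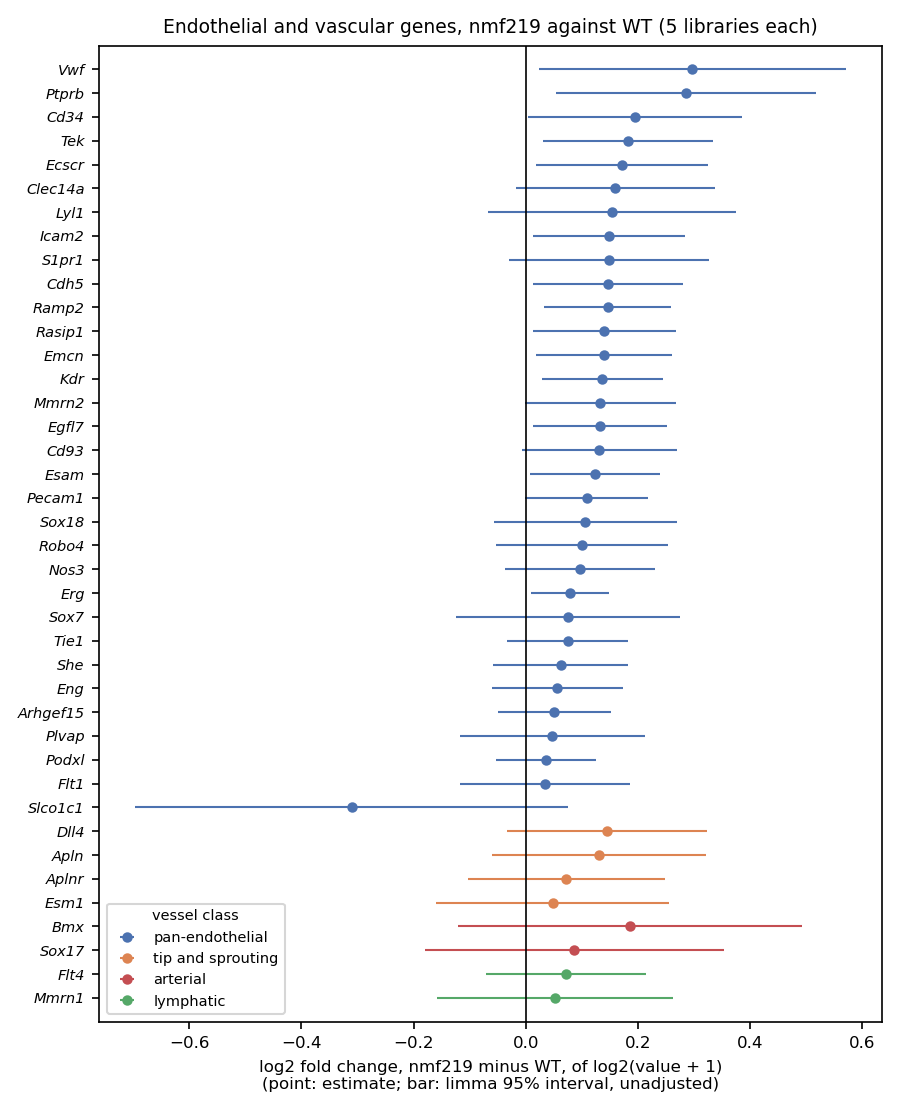
Log2 fold change (nmf219 minus WT) of each of the 40 genes on the log2(value + 1) scale, by vessel class, with limma's unadjusted 95% interval as a bar and 5 libraries per genotype. In 39 of 40 genes the point lies above 0, none with an adjusted p under 0.05, and Slco1c1 alone lies below 0.

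The libraries differed in ways that touch these genes. The reads behind the table numbered between 35293445 and 40942278 for nmf219 libraries and between 31244799 and 41875972 for WT libraries. A single read was thus worth a value of 0.0239 to 0.0317. Every member stood above the value of a single read, with means over the 10 libraries of 1.92 to 129. WT replicate 4 was the lowest of the 10 libraries in 24 of the 40 members and in 23.1% of all genes. It was the highest in 0 of the members and in 24.2% of all genes. Nmf219 replicate 1 was the highest in 17 members and in 9.88% of all genes. The 40 values summed to 1638, 1525, 1609.8, 1597 and 1530.0 in nmf219 replicates 1 to 5, against 1583, 1416, 1435, 1309 and 1513 in WT replicates 1 to 5. The sums overlapped, since WT replicate 1 stood above nmf219 replicates 2 and 5. Without WT replicate 4 the median log2 fold change of the members was 0.093, and without WT replicate 1 it was 0.15. Y-linked genes reached a value of 1 in WT replicates 3, 4 and 5 and in no nmf219 library. The 4 measured summed to 270, 286 and 298 in those 3 WT libraries. They summed to 0.560 and 0.567 in WT replicates 1 and 2 and to at most 0.772 in nmf219 libraries. The presence of Y-linked RNA is thus confounded in part with genotype. Without WT replicates 3, 4 and 5 the median log2 fold change of the members was 0.069, against 0.13 with all 10 libraries. The labels' descriptions carry sample numbers from 2 ranges, each with both genotypes, and the median was 0.11 within 2162 to 2169 and 0.10 within 2199 to 2208. Inner ear genes were well represented, with all 11 defining markers of the tissue in the table, led by the otoconial protein Oc90 at 1159 ± 64.9 in nmf219 and 1172 ± 65.6 in WT (SD, n = 5 each).

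**Figure D2:**
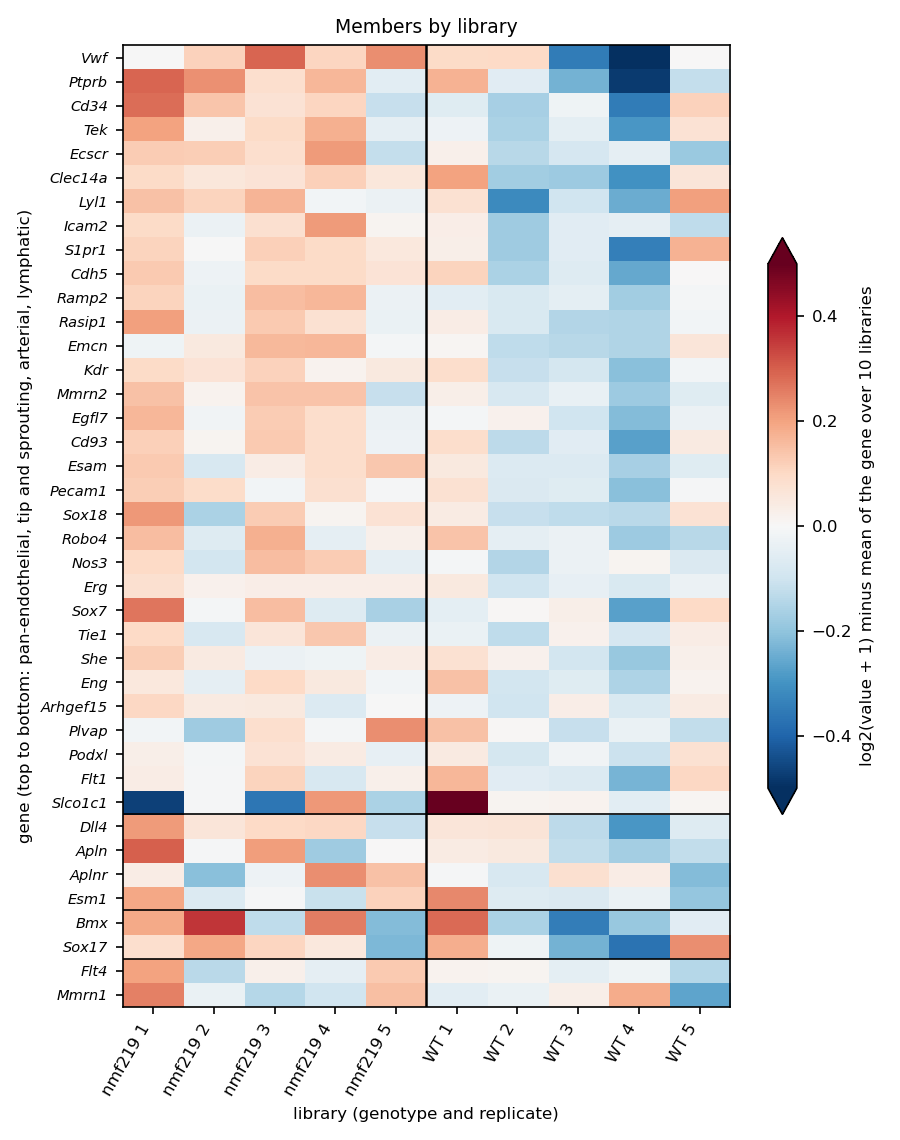
Deviation of log2(value + 1) from each gene's mean over the 10 libraries, for the 40 genes (rows, by vessel class) in the 5 nmf219 libraries (left) and the 5 WT libraries (right). The column of WT replicate 4 is the lowest in 24 of 40 genes and that of nmf219 replicate 1 the highest in 17.

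To compare levels between genes, values were divided by the length of merged exons in GENCODE M21, which counts every annotated isoform and so understates genes with long or rarely used exons. Cdh5 was followed by the ETS transcription factor gene Erg (23.6 per kb in nmf219, 22.4 in WT), the TGF-beta co-receptor Eng (21.3 (nmf219) and 20.5 (WT)) and the junction protein Pecam1 (18.7 (nmf219) and 17.4 (WT)). The VEGF receptor Kdr stood at 11.7 per kb in nmf219 and 10.7 in WT, above its decoy-like relative Flt1 at 3.25 (nmf219) and 3.19 (WT), and above Flt4, the VEGF-C receptor of lymphatic vessels, at 1.94 (nmf219) and 1.83 (WT). At the low end were the tip cell proteoglycan Esm1 (0.958 (nmf219) and 0.914 (WT) per kb), the arterial kinase gene Bmx (0.681 (nmf219) and 0.5598 (WT)) and Slco1c1 (0.355 (nmf219) and 0.495 (WT)). Many neighbours in this order, such as Pecam1 and Aplnr (18.4 (nmf219) and 17.4 (WT) per kb), lay within 2 SD of each other. Exons of 10 members share bases with another gene, over 5% of their length in 6 (Rasip1, Ramp2, Nos3, Sox17, Egfl7 and Dll4), and the strand setting of the counting is not given in the sources used here.

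**Figure D3:**
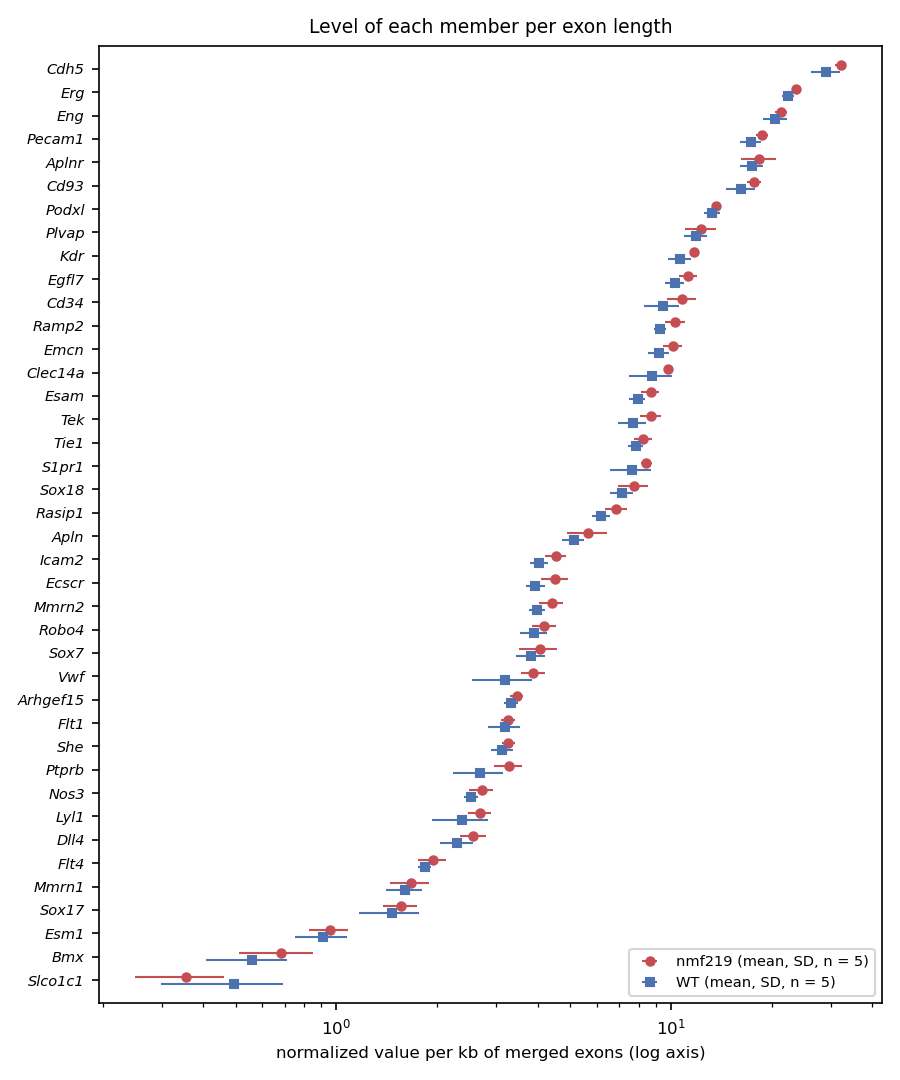
Normalized value per kb of merged exons (log axis) for the 40 genes, as mean with SD over 5 nmf219 libraries (circles) and 5 WT libraries (squares), in order of the mean over all libraries. Levels run from Cdh5 at 32.2 (nmf219) and 29.1 (WT) to Slco1c1 at 0.355 (nmf219) and 0.495 (WT).

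Among 13 genes of cell junctions, adhesion and the endothelial surface, all had a higher mean in nmf219, 7 at an unadjusted p under 0.05 and none after adjustment (median log2 fold change 0.14). Of all genes, 46.9% were higher in nmf219, and 3.88% were higher at that p. The members were measured in the same 10 libraries, so counts by role are not independent results. Cdh5 (ENSMUSG00000031871, chromosome 8, 104101625 to 104144511; positions are those given in the deposited table) was at 141, 126, 137, 137 and 135 in nmf219 replicates 1 to 5, against 139, 115, 123, 107 and 129 in WT replicates 1 to 5. WT replicates 1 and 5 lay within the nmf219 range and the other 3 below it, with a mean of 135 ± 5.51 in nmf219 and 122 ± 12.1 in WT (SD, n = 5 each). The log2 fold change of Cdh5 was 0.15 (SE 0.061, limma adjusted p = 0.680). Pecam1, a homophilic adhesion protein at cell borders (ENSMUSG00000020717, chromosome 11, 106654217 to 106750628), held 122, 119.6, 111, 119 and 112 in nmf219 libraries and 118, 107, 108, 96.98 and 112 in WT libraries. Its lowest value was that of WT replicate 4, WT replicates 1 and 5 reached the nmf219 range, and the log2 fold change was 0.11 (SE 0.050, limma adjusted p = 0.680).

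Cd93, a C-type lectin-like receptor that binds the matrix protein Mmrn2, was at 123, 114, 124, 120.3 and 111 in nmf219 and 120.5, 103, 109, 93.6 and 117 in WT replicates 1 to 5 (ENSMUSG00000027435, chromosome 2, 148436640 to 148443563). Here too WT replicates 1 and 5 fell within the nmf219 range, and the difference was 0.13 on the log2 scale (SE 0.063, limma adjusted p = 0.680). Mmrn2 itself averaged 17.5 ± 1.42 in nmf219 and 15.8 ± 0.882 in WT (SD, n = 5 each), and Clec14a, another lectin-like receptor of Mmrn2, averaged 44.7 ± 0.888 (nmf219) and 40.2 ± 5.97 (WT). Clec14a was the steadiest of these genes among nmf219 libraries, all between 43.9 and 46.0, while WT libraries ran from 34.0 to 48.7.

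Vwf (ENSMUSG00000001930, chromosome 6, 125546774 to 125686679) was at 55.9, 60.8, 68.8, 60.5 and 65.9 in nmf219 replicates 1 to 5 and 59.96, 60.1, 43.8, 36.8 and 56.1 in WT replicates 1 to 5. WT replicates 3 and 4 were well below all other libraries and WT replicates 1, 2 and 5 were within the nmf219 range, so that the means of 62.4 ± 5.04 in nmf219 and 51.4 ± 10.5 in WT (SD, n = 5 each) differed by 0.30 on the log2 scale (SE 0.13, limma adjusted p = 0.680). The fold change of Vwf was 0.19 without WT replicate 4, and 0.050 without the 3 WT libraries with Y-linked RNA. It was 0.063 with Xist as a covariate, 0.084 within description numbers 2162 to 2169 and 0.45 within 2199 to 2208. Megakaryocytes and platelets also hold Vwf, and of their markers Pf4 averaged 8.76 ± 1.397 in nmf219 and 7.68 ± 2.46 in WT while Gp1bb averaged 6.15 ± 0.9902 (nmf219) and 7.02 ± 0.633 (WT) (SD, n = 5 each). Over the 3 measured megakaryocyte markers of 7 in the list, the summed value was 17.9 to 22.2 over nmf219 libraries and 17.4 to 22.5 over WT libraries, 1 of 3 was higher in nmf219, and their part in the Vwf values was not tested.

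Cd34, a sialomucin of endothelium that mesenchymal and blood progenitors also carry, was at 89.4, 80.96, 77.2, 79.2 and 67.8 in nmf219 and 70.3, 65.3, 72.2, 57.3 and 79.6 in WT replicates 1 to 5 (ENSMUSG00000016494, chromosome 1, 194938819 to 194961279). Nmf219 replicate 1 was the highest and WT replicate 4 the lowest, with 3 WT libraries at or above the lowest nmf219 library, and the log2 fold change was 0.19 (SE 0.087, limma adjusted p = 0.680). With the muscle list as a covariate the fold change of Cd34 was 0.036. Podxl, the related podocalyxin, averaged 74.9 ± 2.31 in nmf219 and 73.1 ± 4.09 in WT, the smallest fold change of the surface genes (0.04, 95% interval -0.05 to 0.13). The mucin Emcn averaged 54.9 ± 3.55 in nmf219 and 49.8 ± 3.48 in WT, the junction proteins Esam and Icam2 24.9 ± 1.56 and 8.62 ± 0.6197 in nmf219 against 22.8 ± 1.27 and 7.68 ± 0.482 in WT. Ecscr, a regulator of endothelial migration, averaged 7.91 ± 0.734 in nmf219 and 6.895 ± 0.452 in WT (SD, n = 5 each). Plvap, which builds the diaphragms of fenestrated vessels, had 23.7, 21.1, 25.5, 23.8 and 28.3 in nmf219 and 26.6, 24.1, 22.1, 23.4 and 21.9 in WT replicates 1 to 5. All 5 WT values of Plvap were at or above the lowest nmf219 value, that of replicate 2, and its fold change of 0.05 had a 95% interval of -0.12 to 0.21.

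All 9 genes of receptors and their partners had a higher mean in nmf219 ears, 4 at an unadjusted p under 0.05 and none after adjustment (median log2 fold change 0.14). The shares over all genes were 46.9% higher and 3.88% higher at that p. Kdr, the main signalling receptor for VEGF (ENSMUSG00000062960, chromosome 5, 75932827 to 75978458), was at 108, 105, 109, 102 and 104 in nmf219 replicates 1 to 5, against 107, 92.9, 94.6, 86.9 and 99.7 in WT replicates 1 to 5. WT replicate 1 alone lay within the nmf219 range, and means were 106 ± 2.88 in nmf219 and 96.2 ± 7.56 in WT (SD, n = 5 each). The difference of 0.14 on the log2 scale (SE 0.049) had a limma adjusted p of 0.680. Flt1, which binds VEGF tightly and signals weakly, was at 43.9 ± 2.14 in nmf219 and 43.1 ± 4.78 in WT (SD, n = 5 each), with a fold change of 0.03 and a 95% interval of -0.12 to 0.19. WT replicate 1 was the highest library for Flt1 and WT replicate 4 the lowest.

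Tek, the angiopoietin receptor, averaged 41.1 ± 2.99 in nmf219 and 36.2 ± 3.52 in WT (log2 fold change 0.18, limma adjusted p = 0.680), and its relative Tie1 averaged 40.7 ± 2.54 (nmf219) and 38.5 ± 1.93 (WT) (0.07, adjusted p = 0.727). Ptprb, the phosphatase that acts on Tek and on VE-cadherin junctions (ENSMUSG00000020154, chromosome 10, 116301374 to 116389538), was at 48.3, 46.2, 41.7, 44.2 and 37.9 in nmf219 libraries and 44.5, 37.8, 33.2, 27.9 and 36.1 in WT libraries. WT replicate 1 was the only WT library within the nmf219 range, and WT replicate 4 was the lowest library. The log2 fold change of Ptprb was 0.29 (SE 0.11, limma adjusted p = 0.680), next to that of Vwf in size. It was 0.20 without WT replicate 4, 0.083 without the 3 WT libraries with Y-linked RNA and 0.088 with Xist as a covariate.

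Eng, a TGF-beta co-receptor, averaged 86.2 ± 3.54 in nmf219 and 83.00 ± 6.897 in WT, and Robo4, a stabilizer of the vessel wall, 22.2 ± 1.79 (nmf219) and 20.6 ± 1.93 (WT) (SD, n = 5 each). S1pr1, a receptor for sphingosine-1-phosphate that restrains sprouting, averaged 25.7 ± 0.928 in nmf219 and 23.3 ± 3.29 in WT. Ramp2, the partner of the adrenomedullin receptor, averaged 34.1 ± 2.37 in nmf219 and 30.7 ± 1.34 in WT, and shares 33.4% of its exon bases with Vps25.

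The 5 genes of secreted and intracellular signalling all had a higher mean in nmf219, 2 at an unadjusted p under 0.05 (median 0.10). Over all genes these shares were 46.9% and 3.88%. Egfl7, a secreted endothelial protein whose gene hosts a microRNA, averaged 40.4 ± 2.47 in nmf219 and 36.8 ± 2.42 in WT, and Rasip1, needed for the opening of the vessel lumen, 21.98 ± 1.64 (nmf219) and 19.8 ± 1.197 (WT) (SD, n = 5 each). Nos3, the endothelial nitric oxide synthase, averaged 11.2 ± 0.927 in nmf219 and 10.4 ± 0.4899 in WT, with 32.3% of its exon bases shared with genes on the other strand. The exchange factor Arhgef15 averaged 22.4 ± 1.05 in nmf219 and 21.6 ± 1.01 in WT, and the SH2-domain adaptor She 23.6 ± 1.07 (nmf219) and 22.6 ± 1.71 (WT).

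Of 4 pan-endothelial transcription factors, Erg, a driver of endothelial identity on the same chromosome as Tbx1 (ENSMUSG00000040732, chromosome 16, 95359169 to 95586593), was at 84.1, 80.7, 81.6, 81.4 and 81.6 in nmf219 and 82.4, 74.2, 77.4, 75.5 and 78.00 in WT replicates 1 to 5. Its coefficient of variation in nmf219, 1.59%, was the lowest of the 40 members. WT replicate 1 lay within the nmf219 range and the other WT libraries below it, and the fold change was 0.08 (SE 0.032, limma adjusted p = 0.680). Sox7 and Sox18, which act with Sox17 in vessel formation, averaged 13.4 ± 1.74 and 12.6 ± 1.29 in nmf219 against 12.6 ± 1.27 and 11.6 ± 0.896 in WT (SD, n = 5 each). Lyl1, a factor that blood progenitors share with endothelium, averaged 4.84 ± 0.371 in nmf219 and 4.29 ± 0.807 in WT.

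Slco1c1, a thyroid hormone transporter of brain capillaries and choroid plexus (ENSMUSG00000030235, chromosome 6, 141524368 to 141570177), had the opposite sign. It was at 1.26, 2.11, 1.43, 2.62 and 1.796 in nmf219 replicates 1 to 5, against 4.38, 2.15, 2.16, 2.005 and 2.14 in WT replicates 1 to 5. WT replicate 1 was higher than every other library, and the other 4 WT libraries, between 2.005 and 2.16, lay within the nmf219 range. The log2 fold change was -0.31 (SE 0.18, 95% interval -0.70 to 0.08, limma adjusted p = 0.706). For Slco1c1 it was -0.15 without WT replicate 1 and -0.56 without the 3 WT libraries with Y-linked RNA. The authors' deposited table gives it a log2 fold change of -0.48 at an FDR of 0.0317. A pseudocount of 1 draws fold changes at values this low toward 0. With a pseudocount of 0.1 the fold change of Slco1c1 was -0.44. Of the 6 brain markers measured, 5 were lower and 1 was higher in nmf219, where 46.9% of all genes were higher. None of the 6 passed limma's test, and the authors' deposited table gives an FDR under 0.05 to 1 of them, Slc32a1. The summed value of the 6 was 132 to 154 in nmf219 and 156 to 167 in WT. Zic1, a factor of the dorsal neural tube and of mesenchyme, held 102, 99.3, 109, 97.7 and 113 in nmf219 and 124, 116, 118, 122 and 128 in WT replicates 1 to 5, and Slc32a1, the vesicular transporter of inhibitory neurons, 0.143, 0.4597, 0.296, 0.305 and 0.211 in nmf219 and 0.755, 1.01, 0.666, 1.07 and 0.589 in WT. The genotypes' ranges were separate for these 2 brain genes (limma adjusted p = 0.169 and 0.199) and for 1.17% of all genes. The part of brain RNA in the Slco1c1 values was not tested.

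Promoter windows of the RefSeq table (GRCm38.p6, 250 bases before to 50 after the start) were found for 21 of the 40 genes. The sequences below are the 250 bases before the start of a VEGF receptor gene, an angiopoietin receptor family gene and the transporter gene with the opposite sign, shown so that members with unlike values can be set side by side. They lie at chr5:75978456-75978705 (minus strand) for Kdr, chr4:118489850-118490099 (minus strand) for Tie1 and chr6:141524104-141524353 (plus strand) for Slco1c1, and capitals mark matches to the ETS motifs AGGAAG and CCGGAA on either strand.
Kdr: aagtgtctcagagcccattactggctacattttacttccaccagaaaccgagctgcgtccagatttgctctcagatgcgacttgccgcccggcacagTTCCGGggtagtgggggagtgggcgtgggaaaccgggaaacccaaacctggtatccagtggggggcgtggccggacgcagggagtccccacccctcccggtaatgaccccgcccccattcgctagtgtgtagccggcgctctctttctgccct
Tie1: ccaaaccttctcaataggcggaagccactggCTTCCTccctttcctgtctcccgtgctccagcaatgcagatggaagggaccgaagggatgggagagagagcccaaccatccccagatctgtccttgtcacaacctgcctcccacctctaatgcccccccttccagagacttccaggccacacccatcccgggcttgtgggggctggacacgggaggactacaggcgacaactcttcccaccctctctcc
Slco1c1: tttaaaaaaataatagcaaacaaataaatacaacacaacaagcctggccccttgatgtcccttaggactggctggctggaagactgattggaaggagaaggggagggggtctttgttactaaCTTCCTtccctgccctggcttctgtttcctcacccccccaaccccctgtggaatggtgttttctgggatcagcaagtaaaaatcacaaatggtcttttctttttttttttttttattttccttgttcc

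At least 1 of these 2 ETS motifs, which can share at most 1 base, was present in 12 of the 21 windows (57.1%) and in 45.2% of the windows of all genes. AGGAAG was in 10 (47.6%, against 35.1% of all) and CCGGAA in 2 (9.52%, against 15.2%). The SOX motif ACAAT was in 8 (38.1%, against 31.6%) and the GATA motif TTATCA in 4 (19.0%, against 9.26%), both strands counted. The FOX motifs TAAACA and AACAAA, which can overlap each other, were in 3 (14.3%, against 13.4%) and 5 windows (23.8%, against 20.4%). The window of Slco1c1 holds an ETS match as those of Kdr and Tie1 do, while those of Tek and Erg, not printed, hold none. A second match of Tie1 lies after the start and is not printed. The median GC content was 58.3% in the windows of the members and 52.7% in those of all genes. A match describes the letters of the window and not a bound site.

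The 4 genes of tip cells and sprouting all had a higher mean in nmf219, with a median log2 fold change of 0.10 and none at an unadjusted p under 0.05. Among all genes, 46.9% were higher in nmf219 and 7.11% were at that p in either direction. Dll4, the Notch ligand of tip cells and arteries, was at 10.98, 9.78, 10.1, 10.1 and 8.53 in nmf219 and 9.76, 9.79, 8.44, 7.45 and 8.87 in WT replicates 1 to 5. Values of 3 WT libraries were at or above the lowest nmf219 one, that of replicate 5, and the fold change was 0.14 (SE 0.081, limma adjusted p = 0.701). Apln, the apelin peptide made by sprouting cells, was at 20.96, 16.8, 19.7, 14.8 and 16.9 in nmf219 and 17.4, 17.5, 15.4, 14.9 and 15.4 in WT, and all 5 WT values lay within the nmf219 range (fold change 0.13, 95% interval -0.06 to 0.32).

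Aplnr, the apelin receptor of veins and mesoderm, was at 67.8, 56.9, 64.8, 77.8 and 73.05 in nmf219 and 65.8, 62.4, 69.9, 67.7 and 56.7 in WT replicates 1 to 5. Replicates 4 and 5 of nmf219 were the highest, WT replicate 5 and nmf219 replicate 2 the lowest, and the fold change was 0.07 (95% interval -0.10 to 0.25). Esm1, a proteoglycan secreted by tip cells, was at 2.37, 1.81, 1.94, 1.73 and 2.19 in nmf219 and 2.48, 1.82, 1.81, 1.89 and 1.58 in WT, with WT replicate 1 above all other libraries (fold change 0.05, 95% interval -0.16 to 0.26).

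Both arterial genes had a higher mean in nmf219 and neither reached an unadjusted p of 0.05. The shares over all genes were 46.9% higher and 7.11% under that p in either direction. Sox17, a factor that sets arterial fate, was at 7.63, 8.299, 7.77, 7.45 and 5.97 in nmf219 and 8.23, 7.01, 5.902, 5.298 and 8.56 in WT replicates 1 to 5. WT replicate 5 was the highest library and WT replicate 4 the lowest (fold change 0.09, SE 0.12, limma adjusted p = 0.860). Bmx, a kinase of arterial endothelium, was at 2.29, 2.69, 1.64, 2.44 and 1.48 in nmf219 and 2.51, 1.58, 1.27, 1.53 and 1.77 in WT. Replicates 3 and 5 of nmf219 were among the low WT values, WT replicate 1 among the high nmf219 ones, and the fold change was 0.18 (95% interval -0.12 to 0.49). With a pseudocount of 0.1 in place of 1, the fold change of Bmx was 0.27.

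Both lymphatic genes showed small differences. Flt4, the receptor for VEGF-C, was at 17.96, 14.03, 15.8, 15.01 and 17.1 in nmf219 and 15.7, 15.7, 14.9, 15.3 and 13.96 in WT replicates 1 to 5. Replicates 1, 3 and 5 of nmf219 stood above all WT libraries, replicate 3 only just, WT replicate 5 and nmf219 replicate 2 were the lowest, and the fold change was 0.07 (95% interval -0.07 to 0.21, limma adjusted p = 0.785). Mmrn1, a multimerin of lymphatic endothelium and platelets, was at 11.6, 9.32, 8.55, 8.85 and 10.7 in nmf219 and 9.18, 9.31, 9.77, 11.00 and 7.79 in WT. In contrast to most pan-endothelial genes, WT replicate 4 was the highest WT library for Mmrn1, and the fold change was 0.05 (95% interval -0.16 to 0.26). Relative to the mean over the 10 libraries, WT replicate 4 was at -0.20 for the mean of pan-endothelial genes, at -0.11 for tip and sprouting, at -0.28 for arterial and at 0.083 for lymphatic genes on the log2 scale.

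The median log2 fold change was 0.13 for 32 pan-endothelial, 0.10 for 4 tip and sprouting, 0.14 for 2 arterial and 0.062 for 2 lymphatic genes. The tip and sprouting median was 0.0151 without the 3 WT libraries with Y-linked RNA and 0.0237 with Xist as a covariate. The arterial median was 0.21 without WT replicate 1, and -0.0036 without the WT libraries with Y-linked RNA. It was 0.0072 to 0.0157 with Xist, Hbb-y, the macrophage list or the cell cycle list as a covariate. Differences between these classes were not tested.

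Other genes of the same pathways did not pass limma's test either. Of 13 measured ligands and co-receptors of VEGF, angiopoietins and guidance cues, 11 were higher in nmf219 (median 0.059), Vegfa itself averaging 118 ± 5.15 in nmf219 and 116 ± 9.39 in WT (SD, n = 5 each), and the most abundant, the co-receptor Nrp2, 208 ± 7.67 (nmf219) and 198 ± 18.5 (WT). Angpt2, the ligand that loosens vessels, averaged 11.6 ± 1.36 in nmf219 and 9.37 ± 3.55 in WT. Of 12 further endothelial transcription factors 6 were higher and 6 lower (median -0.0032), with Ets2 at 142 ± 5.77 in nmf219 and 144 ± 5.23 in WT. Of 11 further arterial and Notch genes 8 were higher (0.031), led in level by Notch1 at 188 ± 6.76 in nmf219 and 184 ± 9.97 in WT. Of 7 further lymphatic genes 6 were higher (0.11), among them the lymphatic master regulator Prox1 at 16.6 ± 1.38 in nmf219 and 15.2 ± 2.24 in WT, which ear epithelium also expresses, while the most abundant, the integrin Itga9, was at 100.1 ± 3.82 (nmf219) and 103 ± 4.87 (WT).

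Of 3 venous genes 2 were higher (0.015), with the ephrin receptor Ephb4 at 176 ± 8.91 in nmf219 and 179 ± 5.58 in WT. Barrier genes were higher in 7 of 10 (0.072), including the tight junction protein Cldn5 at 16.4 ± 1.53 in nmf219 and 14.7 ± 1.402 in WT, and lower for the glucose transporter Slc2a1 at 76.97 ± 4.75 (nmf219) and 85.4 ± 11.1 (WT). The most abundant barrier gene was Itm2a, at 575 ± 66.96 in nmf219 and 511 ± 71.7 in WT. A further list of 22 endothelial genes, which also holds Cldn5, had 19 higher (0.077), with the scavenger receptor Stab1 most abundant at 139.6 ± 9.76 in nmf219 and 134 ± 26.7 in WT. Hypoxia genes, which include Vegfa and Slc2a1, were higher in 6 of 8 (0.023), with the kinase Pdk1 at 122 ± 6.33 in nmf219 and 122 ± 11.1 in WT. Beside these counts, 46.9% of all genes were higher in nmf219. In all these lists 0 genes had a limma adjusted p under 0.05. The authors' deposited table gives an FDR under 0.05 to 2 of them, Reln among the lymphatic genes and Cav1 among the further endothelial genes. Both were higher in nmf219.

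Markers of other cell types also varied across these libraries, and limma called 0 genes of each list below at an adjusted p under 0.05. Of 12 pericyte and smooth muscle genes 11 were higher in nmf219 (median log2 fold change 0.27), with sums of 732 to 884 in nmf219 and 714 to 837 in WT, and the most abundant, Cspg4, was lower, at 197 ± 20.4 (nmf219) and 221 ± 34.3 (WT). Of 13 macrophage and leukocyte genes 12 were higher (median 0.20), with sums of 225 to 292 in nmf219 and 162 to 308 in WT and Mrc1 at 66.5 ± 8.37 (nmf219) and 63.03 ± 18.8 (WT). All 13 skeletal muscle genes were higher (median 1.76), with sums of 920 to 3740 in nmf219 and 178 to 2193 in WT and Myh3 at 487 ± 241 (nmf219) and 235 ± 263 (WT). Of 10 erythroid genes 7 were higher (median 0.33), with sums of 4992 to 7695 in nmf219 and 2587 to 9717 in WT and Hba-a1 at 2609 ± 482 (nmf219) and 2181 ± 1223 (WT). All 12 cell cycle genes were lower (median -0.13), with sums of 1104 to 1371 in nmf219 and 1053 to 1564 in WT and Mki67 at 353 ± 28.6 (nmf219) and 389.6 ± 52.6 (WT). The authors' deposited table gives an FDR under 0.05 to all 13 skeletal muscle genes. It does so for 3 mural genes, Acta2, Tagln and Myh11, all higher in nmf219. It also does so for 2 erythroid genes, the embryonic globins Hbb-y and Hba-x, both lower in nmf219, and for 0 macrophage and 0 cell cycle genes. At an unadjusted p under 0.05 limma gave 12 skeletal muscle, 2 mural, 2 macrophage, 0 erythroid and 0 cell cycle genes. Of all genes 7.11% were at that p in either direction, and 46.9% had a log2 fold change above 0. The embryonic globin Hbb-y was at 6.15, 4.28, 3.66, 4.15 and 33.00 in nmf219 replicates 1 to 5 and 11.4, 15.8, 20.5, 44.4 and 3.103 in WT replicates 1 to 5.

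WT replicate 4 was the lowest library in the means of the endothelial, mural and macrophage lists and the highest in cell cycle genes and Hbb-y. Among nmf219 libraries, replicate 5 was the lowest in the endothelial, mural and macrophage lists and the highest in cell cycle genes and Hbb-y. When the muscle list's mean was added to the fit, the median log2 fold change of the 40 genes was 0.063, with the macrophage list 0.081, with the cell cycle list 0.085, with Hbb-y 0.089 and with Xist 0.071. In none of these fits did a member pass the test.

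**Figure D4:**
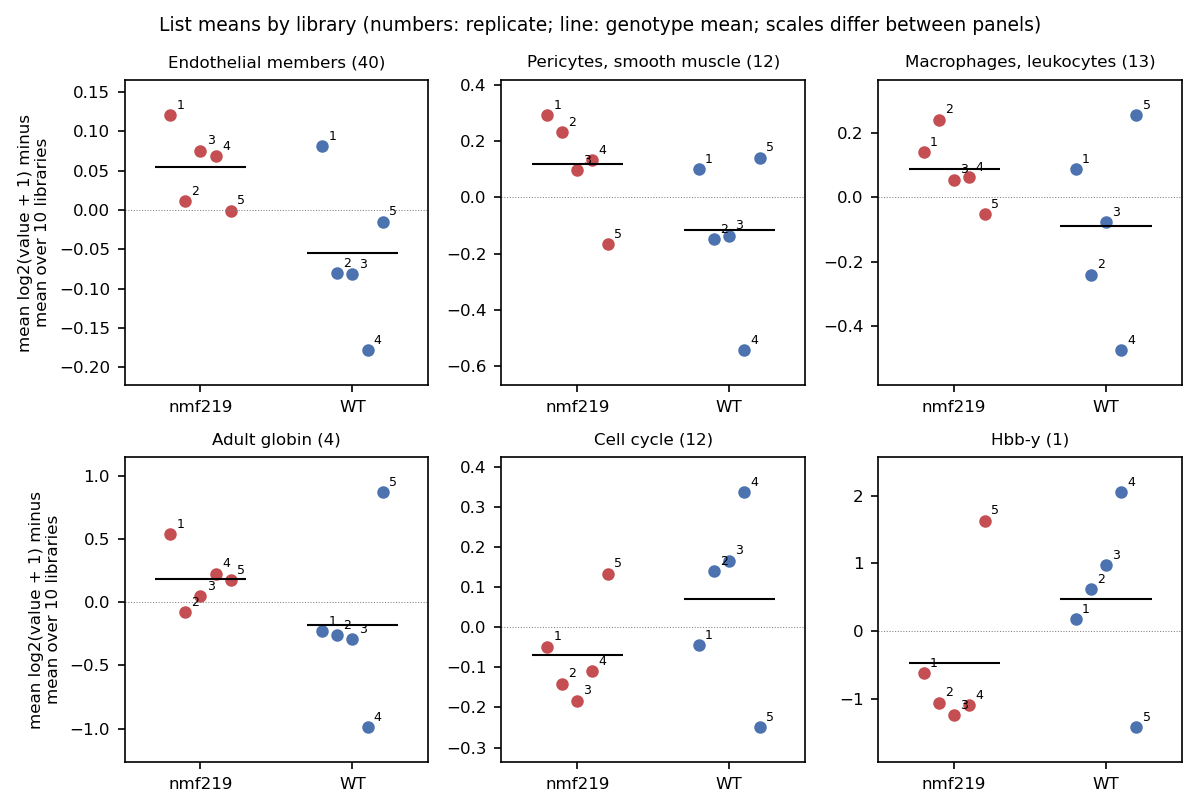
Mean log2(value + 1) of each list in each library, minus the mean over 10 libraries, with nmf219 libraries left and WT libraries right, replicate numbers beside the points, genotype means as lines and a separate scale in each panel. WT replicate 4 lies lowest for the 40 endothelial genes, for pericytes and smooth muscle and for macrophages, and highest for the cell cycle and Hbb-y.

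The direction of the median held in every refit that was made, and its size did not. It lay between 0.093 and 0.15 when 1 library was left out and between 0.063 and 0.13 under the other 18 alternatives, and 0 members passed the test in any of them (lowest adjusted p 0.267, without WT replicate 5).

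**Figure D5:**
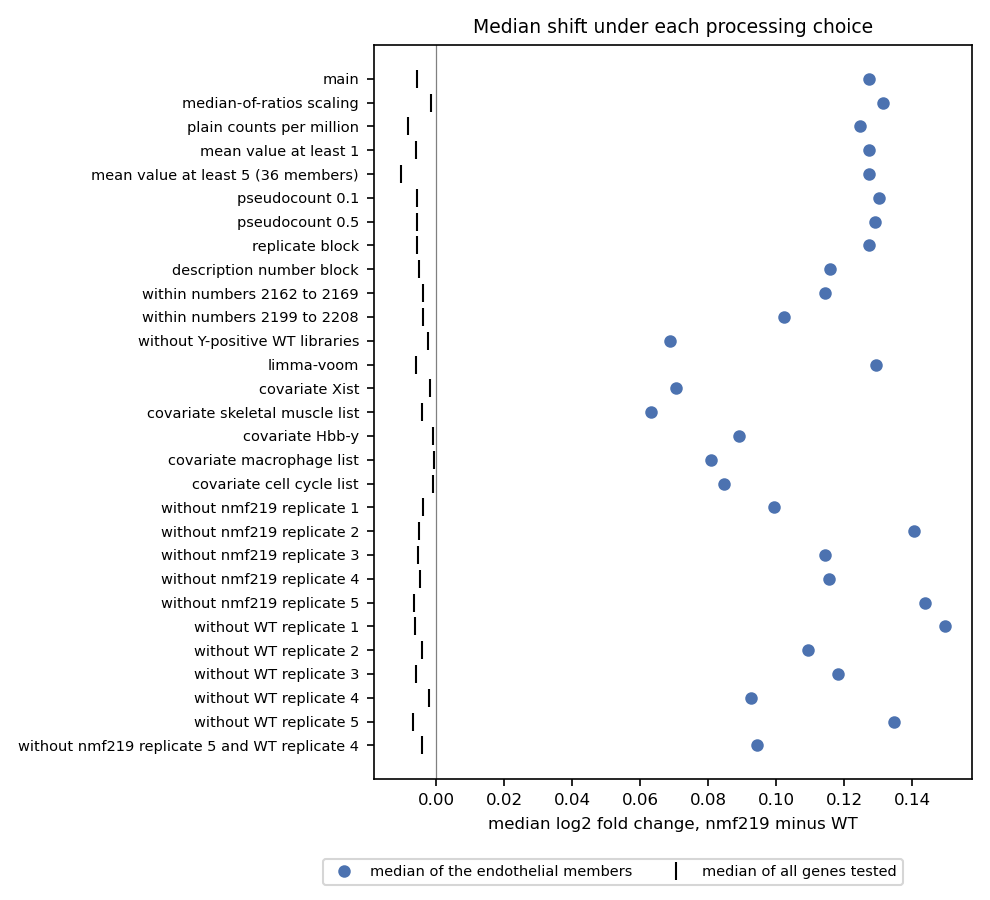
Median log2 fold change (nmf219 minus WT) of the 40 genes (points; 36 of them at a mean of at least 5) and of all genes tested (ticks) under each processing choice, by rows. The points lie between 0.063 and 0.15 and the ticks near 0.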

How the data were processed

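RNA from 5 nmf219/nmf219 and 5 WT inner ears was sequenced; the groups come from the sample titles and genotypes. Per the labels' protocols, frozen ears were lysed in Trizol and total RNA went into standard Illumina libraries. Not given in the sources used here are the aligner, counter, strand setting, annotation and build. The deposited table gives 1 normalized signal per gene and library ("counts_cpm" per the file headers); each value is a whole multiple of 1 step per library, from which reads were recovered, and columns sum to 990643 to 1009217. It also holds the authors' log2 fold change, fold (a signed score), p-value and FDR.

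The members and gene lists, and the roles used to order them, were chosen with earlier results of these data known. All 40 members are accounted for; values per library are given for the 4 most abundant pan-endothelial genes, the 4 with the largest fold change at a mean of at least 1, and all tip, arterial and lymphatic genes, as well as for Erg, Plvap and Hbb-y, which were added after their values were seen. Of other lists, called genes, genes with separate ranges and the most abundant gene are named, and, after their values were seen, genes past the authors' FDR (13 muscle genes as a count) and some others for their role. limma 3.58.1 (trend; R 4.3.3) tested genotype alone on log2(value + 1), with a pseudocount of 1 and no filter. The script was tested on simulated data. Exon lengths and overlaps came from GENCODE M21, in which 34 of 40 members have the table's coordinates; promoters came from RefSeq GRCm38.p6. Alternatives were other scalings, filters and pseudocounts, limma-voom on recovered reads, blocks, covariates, subsets by description number, and leaving out libraries.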

Additional observations from a re-analysis of the deposited data

Results flagged for a closer look

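Of 80 groups of 5 libraries (40 genes in each genotype), 2 held a library far from the other 4, where chance flags about 1 in 20 groups. Erg was at 84.1 in nmf219 replicate 1, with the other nmf219 libraries between 80.7 and 81.6. Slco1c1 was at 4.38 in WT replicate 1, with the other WT libraries between 2.005 and 2.16.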

How the results depend on the processing

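Under the 28 alternatives 0 members passed the test (at a mean of at least 5, 36 of the 40 were tested), and the median of the 40 stayed within 0.073 of its value, the spread between libraries. Of the 40 members, 29 kept the sign of their fold change throughout. Within description numbers 2199 to 2208 the log2 fold change was -0.0162 for Sox7, -0.0297 for Mmrn1, -0.0027 for Apln, -0.0446 for Esm1 and -0.0127 for Arhgef15. Without the WT libraries with Y-linked RNA it was -0.0381 for Flt1, -0.0362 for Sox17, -0.0001 for Robo4, -0.053 for Plvap, -0.0633 for Esm1 and -0.0171 for She. With Xist as a covariate these were, in the same order, -0.0385, -0.0253, -0.0005, -0.037, -0.0501 and -0.0132. The muscle covariate gave -0.0541 for Sox7. Hbb-y as a covariate gave -0.0155 for Flt1, -0.0062 for Sox7, -0.0629 for Sox17 and -0.0039 for Podxl, the macrophage list -0.0428, -0.0032, -0.0664 and -0.0078 for the same genes, and the cell cycle list -0.0339 for Flt1, -0.0679 for Sox17 and -0.0077 for Podxl. Leaving out libraries gave -0.0079 to 0.10 for Mmrn1, -0.0077 to 0.10 for Plvap and -0.0221 to 0.0803 for Flt1. The causes were not tested.

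The number of genes called in the whole table was 13, and it was 4 at a mean of at least 5, 9 with limma-voom, 2 with Xist, 4 with the muscle list, 33 with Hbb-y, 30 with the macrophage list, 40 with the cell cycle list, 1 within numbers 2162 to 2169, 2 within 2199 to 2208, and 7 to 18 with 1 library left out. Members with separate ranges numbered 8 within 2162 to 2169 (16.13% of all genes), 5 within 2199 to 2208 (13.8%), 1 without the WT libraries with Y-linked RNA (12.1%), 1 without nmf219 replicate 5 and WT replicate 4 (3.50%; chosen after seeing the data) and 0 to 4 with 1 library left out (1.49% to 3.55% of all genes; 1.95% for the 4 members without WT replicate 1); fewer libraries per genotype make separate ranges more common. A replicate block called 2 genes of the table and 0 members. The numbers are shared by the genotypes in the labels, which do not say that they pair samples. Deviations of same-numbered libraries correlated at 0.04, 0.136, -0.47, -0.272 and -0.475, and those of other pairs at -0.342 to 0.641. With 5 libraries per genotype these correlations cannot decide whether same-numbered libraries are paired. edgeR and DESeq2, which had been planned, were not run on the recovered reads. All members stood above the value of 3 reads, which was at most 0.0952. The part of counting noise in the scatter of the lowest members, such as Esm1, Bmx and Slco1c1, was not tested.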
